A study of Mus musculus with 8 samples.

Results

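Glucose entry, its breakdown to lactate and its storage as glycogen were followed through 35 genes in injured mouse hearts. The genes are the transporters of glucose and lactate, the enzymes of glycolysis, the kinases that switch off pyruvate dehydrogenase, and the enzymes that build and break down glycogen. They were taken by gene symbol and joined on gene ID, and all 35 were among the 16547 genes with values in every library and among the 13953 genes tested. The hearts came from a mouse model of ischemia-reperfusion, in which blood flow is stopped and restored. The series title names nanozymes built from ionizable protein nanocages and meant to remove superoxide within cells.

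There were 4 groups of 2 libraries each. Every mouse had ischemia-reperfusion. One group received PBS, the buffer control, and the others received the nanocages iFTn-M4, iFTn-R4 or iFTn-MR4, as 2 doses of 2.5 mg/kg protein given every other day. Heart tissue was collected after 3 days. Strain and age are not given in the sources used here, and none of the 8 libraries is labelled as an uninjured heart. Whether both libraries of a group are from different mice is not labelled, and the p-values then reflect the spread between libraries, which may be technical.

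Libraries held 13618128 to 15729311 expected counts over the genes used. Levels are in CPM, counts relative to library sizes scaled by TMM. The PBS libraries stand in a table of their own, so a difference between tables cannot be told apart from one between nanocage and PBS. Comparisons between nanocages lie within 1 table. Cardiomyocyte markers (10 of 10 in the tables) summed to 42613 and 43814 CPM in PBS, 38981 and 39753 in iFTn-R4, 57596 and 60288 in iFTn-M4, and 68064 and 65080 in iFTn-MR4. Of 8 skeletal muscle markers 6 were in the tables. The myosin Myh1 averaged at most 0.15 CPM in a group, and Tnnt3, Tnni2 and Mylpf at most 3.62 CPM. Acta1 and Ckm, which heart also uses, averaged 238 to 772 and 959 to 1867 CPM. In RNA from whole tissue, fewer cells of a type and less RNA per cell cannot be told apart.

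The beating heart takes up glucose mainly through GLUT4, which insulin and contraction bring to the surface, and through GLUT1, the basal carrier found in most cells. Many steps of glycolysis have separate genes for the same reaction, with a muscle or heart form beside forms used in most tissues or in white blood cells. The adult heart burns mostly fatty acids and takes up lactate as a fuel. Low oxygen and inflammation both raise glycolysis, in part through the transcription factor HIF-1. For the description that follows, 12 members were put in a muscle or heart class, 13 in a ubiquitous class, 4 in a leukocyte class, and 6 have 1 main form in this set. The muscle class holds Slc2a4, Hk2, Pfkm, Pfkfb1, Pfkfb2, Aldoa, Pgam2, Eno3, Ldhb, Pdk2, Pdk4 and Pygm. The ubiquitous class holds Slc2a1, Hk1, Pfkl, Pfkp, Pfkfb3, Pfkfb4, Aldoc, Pgam1, Eno1, Ldha, Slc16a1, Pdk1 and Pygb. It includes the brain forms Aldoc and Pygb, and counts by class depend on such choices.

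Most ubiquitous forms were lower in nanocage-treated hearts than in PBS hearts, and several muscle forms were higher, mainly in iFTn-M4 and iFTn-MR4. Of the 35 genes, 8 rose and 17 fell in iFTn-M4 against PBS (adjusted p under 0.05, edgeR quasi-likelihood test, Benjamini-Hochberg over all tested genes), where 41.2% of all tested genes passed in either direction, 19.8% upwards and 21.4% downwards. In iFTn-R4 against PBS 5 rose and 20 fell, beside 29.4% of all tested genes (13.9% up, 15.4% down). The 5 rises were 2 without PBS library 1, PBS library 2 or iFTn-R4 library 2, 3 without iFTn-M4 library 1 and 2 with a length offset, and on log2(TPM + 1) 8 rose and 12 fell. In iFTn-MR4 against PBS 10 rose and 16 fell, beside 50.9% (24.6% up, 26.3% down). These 3 comparisons share the same PBS libraries. In the test of any difference among the 4 groups 31 of 35 passed, beside 50.3% of all tested genes. Slc2a3, Pfkfb4, Gys1 and Pygl did not pass that test. Libraries of the groups did not overlap for 31 genes in iFTn-M4, 29 in iFTn-R4 and 31 in iFTn-MR4 against PBS, beside 74.6%, 64.6% and 79.2% of all tested genes.

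Most called members of the 2 main classes went opposite ways in iFTn-M4 and iFTn-MR4. The classes were set with earlier results of these data known, so this contrast is a description and not a test. Of the 13 ubiquitous forms, 10 fell and 1 rose in iFTn-M4, 10 fell and 2 rose in iFTn-R4, and 9 fell and 2 rose in iFTn-MR4, with median log2 fold changes against PBS of -0.75, -0.65 and -0.65. The risers were Pygb in each nanocage and Pdk1 in iFTn-R4 and iFTn-MR4, the Pdk1 call in iFTn-R4 being lost without PBS library 1 or 2, iFTn-M4 library 1 or iFTn-R4 library 2 (0.20 to 0.42). Of the 12 muscle forms, 7 rose and 0 fell in iFTn-M4 and 8 rose and 0 fell in iFTn-MR4, with medians of 0.42 and 0.67. In iFTn-R4 3 muscle forms rose (Pfkfb2, Pdk4 and Pygm) and 3 fell (Aldoa, Pfkfb1 and Pgam2), with a median of 0.01. Those rises numbered 1 without PBS library 1, PBS library 2 or iFTn-R4 library 2, 2 without iFTn-M4 library 1 or either iFTn-MR4 library, 5 without iFTn-R4 library 1, and 6 on log2(TPM + 1), and the falls numbered 1 without PBS library 2. With an offset for transcript length, Aldoa, Pgam2 and Pygm in iFTn-R4 did not pass (-0.21, -0.21 and 0.36, edgeR adjusted p 0.191, 0.124 and 0.0837). Hk2 then fell in iFTn-R4 (-0.59, adjusted p 0.00691). The leukocyte class (Slc2a3, Hk3, Pygl and Slc16a3) had 2 falls in iFTn-M4, 2 in iFTn-R4 and 3 in iFTn-MR4, and 0 rises. The median over all tested genes was 0.00 in each comparison. Over the 18 alternative settings the ubiquitous median against PBS lay between -0.86 and -0.37 and the muscle median was above 0 in iFTn-M4 and iFTn-MR4, while in iFTn-R4 it ran from -0.11 to 0.25. The cardiomyocyte marker sums given above were higher than PBS in iFTn-M4 and iFTn-MR4 and lower in iFTn-R4. Myh6 is a large part of them and averaged 14789 CPM in PBS, 12810 in iFTn-R4, 24833 in iFTn-M4 and 28286 in iFTn-MR4. Both iFTn-R4 libraries were above both PBS libraries for 4 of the 10 markers and below for 6. Libraries of these 2 groups did not overlap for 64.6% of all tested genes. By marker, 5, 2 and 8 of 10 rose and 0, 5 and 0 fell in iFTn-M4, iFTn-R4 and iFTn-MR4 against PBS. Of 8 neutrophil markers 6, 2 and 6 fell and 0, 1 and 0 rose. Of 8 fibroblast markers 6, 6 and 7 rose and 0 fell, with sums of 6908 and 7148 CPM in PBS and 8871 to 13764 in the nanocage libraries. Of 6 endothelial markers 3, 5 and 4 rose and 0 fell, with sums of 1188 and 1327 CPM in PBS and 1475 to 1695 in the nanocage libraries. The part of these cells in the class changes was not tested.

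**Figure D1:**
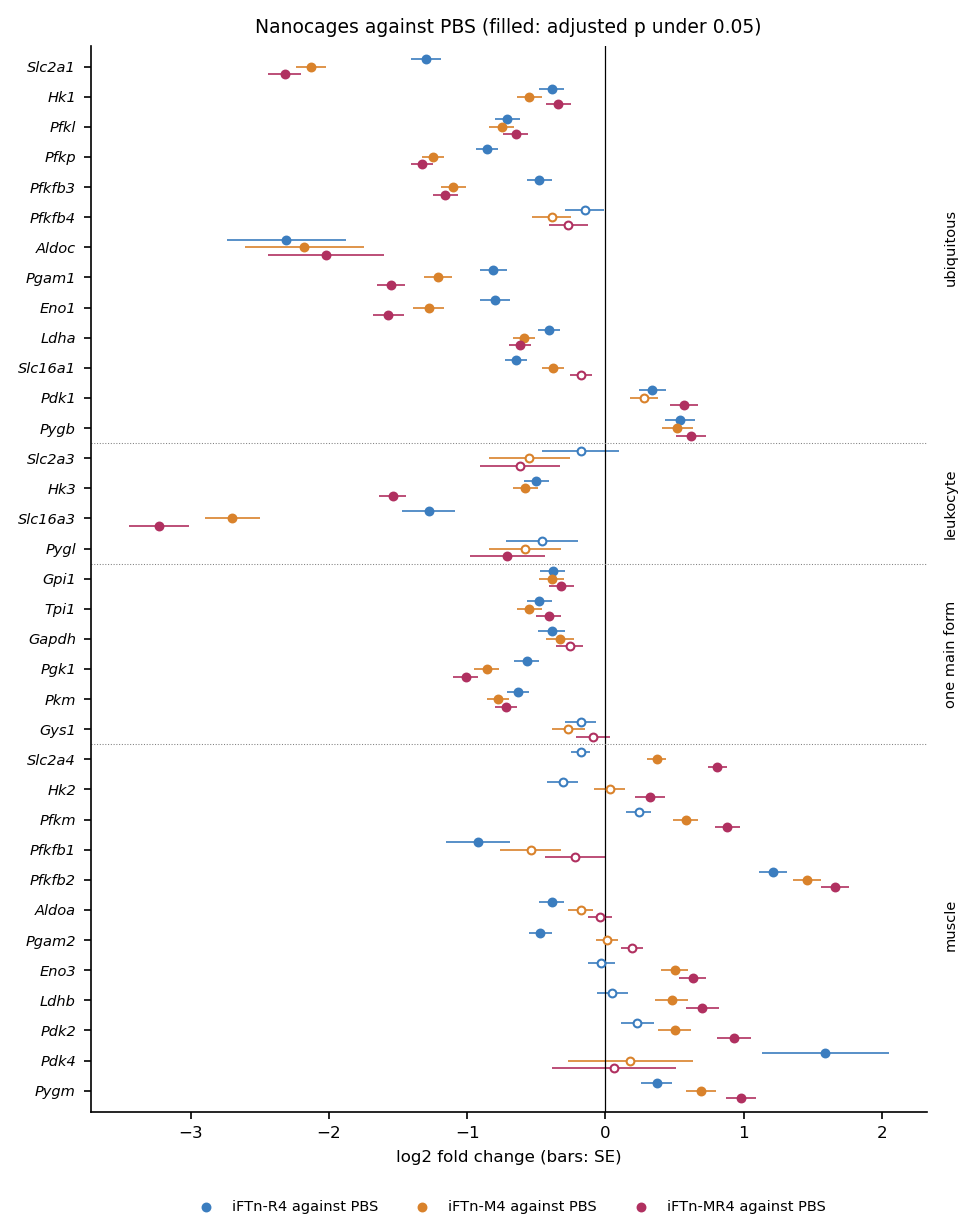
Log2 fold change of each member in iFTn-R4 (blue), iFTn-M4 (orange) and iFTn-MR4 (red) against PBS, grouped by class, with bars of 1 standard error and filled points for an adjusted p under 0.05. Most ubiquitous, leukocyte and single-form genes lie left of 0, and most muscle forms lie right of 0 in iFTn-M4 and iFTn-MR4.

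Promoter sequence is shown for 4 genes that fell in each nanocage (Slc2a1, Slc16a3, Pgk1, Pgam1) and for 2 muscle genes that rose in iFTn-M4 and iFTn-MR4 (Eno3, Pygm), since the core letters bound by HIF-1 stand in front of both kinds. The windows are from RefSeq on GRCm38.p6, plus strand, at chr4:119108495-119108713, chr11:120948817-120949057, chrX:106186850-106187099, chr19:41911621-41911870, chr11:70656926-70657175 and chr19:6384158-6384398. Each is upstream of the RefSeq transcript start, cut where an annotated exon begins except to keep a motif whole. Capitals mark ACGTG or GCGTG on either strand.
Slc2a1: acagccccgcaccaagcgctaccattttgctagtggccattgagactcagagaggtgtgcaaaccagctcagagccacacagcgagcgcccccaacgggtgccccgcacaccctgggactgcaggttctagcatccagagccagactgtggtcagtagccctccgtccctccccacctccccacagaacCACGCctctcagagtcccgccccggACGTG
Slc16a3: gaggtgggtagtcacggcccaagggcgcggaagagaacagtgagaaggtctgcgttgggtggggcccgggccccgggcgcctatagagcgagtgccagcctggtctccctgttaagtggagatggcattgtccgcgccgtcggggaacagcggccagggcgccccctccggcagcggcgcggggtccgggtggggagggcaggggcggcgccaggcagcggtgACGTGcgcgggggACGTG
Pgk1: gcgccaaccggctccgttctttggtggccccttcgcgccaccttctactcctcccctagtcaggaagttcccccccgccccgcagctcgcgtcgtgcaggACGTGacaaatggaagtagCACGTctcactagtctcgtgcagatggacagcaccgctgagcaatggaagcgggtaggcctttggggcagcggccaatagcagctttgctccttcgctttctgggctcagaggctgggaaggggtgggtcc
Pgam1: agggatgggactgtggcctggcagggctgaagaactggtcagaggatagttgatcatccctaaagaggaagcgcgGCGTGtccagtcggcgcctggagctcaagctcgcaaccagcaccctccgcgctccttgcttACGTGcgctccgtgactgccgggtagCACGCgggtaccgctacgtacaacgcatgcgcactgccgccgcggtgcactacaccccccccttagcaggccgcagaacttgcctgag
Eno3: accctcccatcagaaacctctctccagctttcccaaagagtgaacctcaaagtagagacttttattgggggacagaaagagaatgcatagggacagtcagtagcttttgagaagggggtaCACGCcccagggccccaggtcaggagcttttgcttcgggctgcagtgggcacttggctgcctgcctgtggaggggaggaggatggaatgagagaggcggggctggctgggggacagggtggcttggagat
Pygm: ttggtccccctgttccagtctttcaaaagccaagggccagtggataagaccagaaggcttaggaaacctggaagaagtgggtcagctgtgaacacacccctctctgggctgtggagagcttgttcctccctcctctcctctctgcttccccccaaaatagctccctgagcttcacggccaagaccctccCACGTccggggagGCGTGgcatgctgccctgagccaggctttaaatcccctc
The core ACGTG or GCGTG, read on both strands, was in 75% of the 52 RefSeq windows of members and in 38.6% of 32851 windows of all genes of the same length. By gene, 29 of 33 members with a window held it in at least 1 window, beside 41.5% of 27025 genes. Members have more windows per gene (52 over 33, against 32851 over 27025), which raises a share by gene. All 13 ubiquitous forms and 10 of 11 muscle forms with a window held it, so the letters stand in front of genes of both classes. It was also in 3 of 3 leukocyte forms and in 3 of 6 genes with 1 main form. Other letters differed too: GGGCGG was in 20 of 33 members (60.6%), beside 35.4% of 27025 genes, and TATAAA in 1 of 33 (3.03%), beside 14.3%. The E-box CACGTG, which overlaps ACGTG, was in 6 of 33 members (18.2%), beside 6.86% of 27025 genes. A match is a description of letters and not of binding.

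RNA of the basal glucose carrier fell in each nanocage against PBS, and RNA of the insulin-responsive carrier rose in iFTn-M4 and iFTn-MR4. Slc2a1, encoding GLUT1, was at 122 and 99.3 CPM in PBS, 46.6 and 42.9 in iFTn-R4, 25 and 25.5 in iFTn-M4, and 23.5 and 20.6 in iFTn-MR4. PBS was highest in both libraries, iFTn-R4 lay between, and the other groups were lowest, with no overlap between any pair of groups. The gene lies at chr4:119108745-119137330 of GRCm38.p6. It fell by 2.13 on the log2 scale in iFTn-M4 (SE 0.11, edgeR adjusted p 6.75e-06), by 1.30 in iFTn-R4 (SE 0.11, adjusted p 0.000299) and by 2.32 in iFTn-MR4 (SE 0.12, adjusted p 2.46e-06). Slc2a4, encoding GLUT4, was at 230 and 239 CPM in PBS, 212 and 202 in iFTn-R4, 302 and 305 in iFTn-M4, and 404 and 421 in iFTn-MR4. Its 4 groups did not overlap and iFTn-R4 was the lowest. The gene lies at chr11:69942286-69948216. It rose against PBS in iFTn-M4 (log2 0.37, SE 0.07, edgeR adjusted p 0.00343) and in iFTn-MR4 (log2 0.81, SE 0.07, adjusted p 3.37e-05), and did not pass in iFTn-R4 (-0.18, adjusted p 0.0935). Slc2a3, encoding the high-affinity carrier GLUT3 of neurons and white blood cells, was between 4.54 and 9.98 CPM in every library and passed in no comparison.

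To compare forms with each other, each was taken as a percent of the summed TPM (counts scaled by transcript length and depth) of its family. GLUT4 made up 62.4% and 68.4% of the 3 glucose carriers in PBS, 79.1% and 80.2% in iFTn-R4, 90.7% and 90.9% in iFTn-M4, and 93.4% and 94.1% in iFTn-MR4. The 4 groups kept apart in that order. The shares are of RNA and carry no test. Among 29 isoforms in 11 families, the order of the groups differed between shares of TPM and shares of counts for 4.

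**Figure D2:**
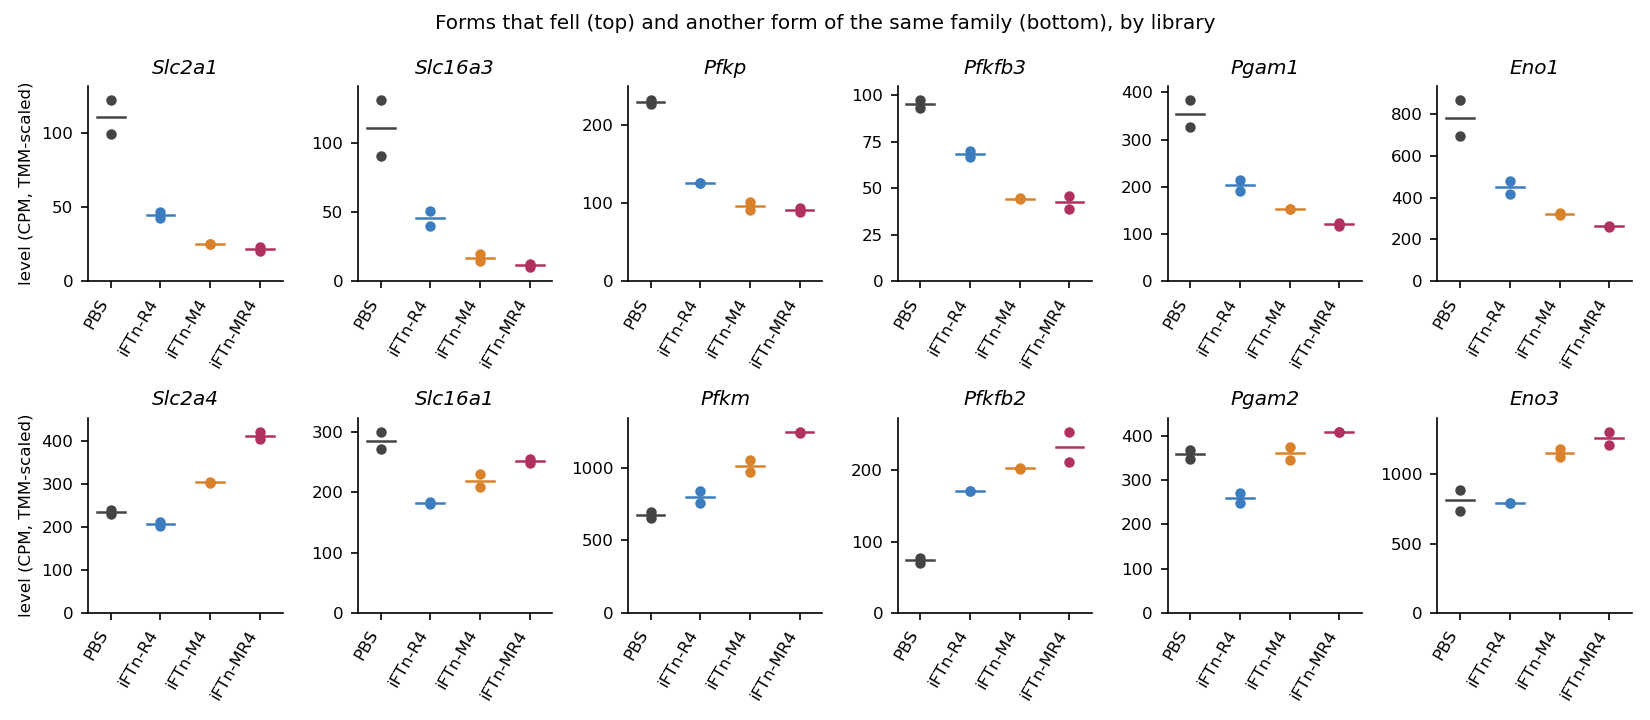
Level in CPM of 6 forms that fell (top) and of another form of each family (bottom), 1 point a library and a line at the group mean. Slc2a1, Slc16a3, Pfkp, Pgam1 and Eno1 are highest in PBS, while Slc2a4, Pfkm and Pfkfb2 are highest in iFTn-MR4.

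At hexokinase, which traps glucose in the cell, the leukocyte form fell in each nanocage and lowest in iFTn-MR4. Hk3 was at 46.1 and 42.9 CPM in PBS, 31.8 and 31.2 in iFTn-R4, 31.6 and 28.1 in iFTn-M4, and 15.3 and 15.2 in iFTn-MR4. Both iFTn-MR4 libraries lay far below every other library, and those of iFTn-R4 and iFTn-M4 overlapped. It fell by 0.58, 0.50 and 1.54 on the log2 scale in iFTn-M4, iFTn-R4 and iFTn-MR4 against PBS (edgeR adjusted p 0.000948, 0.00374 and 5.3e-06). On log2(TPM + 1) with limma the iFTn-R4 value was -0.22 and no longer passed (adjusted p 0.116). The neutrophil marker sum was 237 and 171 CPM in PBS, 183 and 130 in iFTn-R4, 79.8 and 45 in iFTn-M4, and 45.8 and 51.2 in iFTn-MR4. The monocyte and macrophage sum was 1631 and 2492 CPM in PBS and between 1604 and 2361 in the nanocage libraries, with Lyz2 alone at 751 to 1285 CPM by group. Of those 10 markers, 4, 4 and 6 fell and 1, 0 and 1 rose in iFTn-M4, iFTn-R4 and iFTn-MR4 against PBS. The receptor gene Fcgr1 averaged 104 CPM in PBS, 59.5 in iFTn-R4, 50.8 in iFTn-M4 and 32.4 in iFTn-MR4, and the monocyte gene Ly6c2 50.5, 24.3, 6.02 and 3.82 in the same order. All 8 neutrophil and all 10 monocyte markers were in the tables. The neutrophil granule gene Ngp was at 1.19 and 1.26 CPM in iFTn-R4 and at most 0.445 CPM in the other libraries, with 0 in iFTn-M4 library 2. The part of these cells in the Hk3 values was not tested.

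Hk1, the form of most tissues, fell in each nanocage against PBS, by 0.55, 0.39 and 0.34 on the log2 scale in iFTn-M4, iFTn-R4 and iFTn-MR4 (edgeR adjusted p 0.00145, 0.0117 and 0.0111). Without PBS library 2 the iFTn-R4 and iFTn-MR4 values were -0.30 and -0.25 and did not pass (adjusted p 0.092 and 0.0923), nor did iFTn-MR4 without its library 1 (-0.28, adjusted p 0.0911). Hk2, the insulin-responsive form of muscle, rose against PBS in iFTn-MR4 alone, by 0.32 (adjusted p 0.0322), and that call was lost without either PBS library or either iFTn-MR4 library (0.26 to 0.38, adjusted p 0.0519 to 0.156), with library size alone (0.29, adjusted p 0.0519) and with an offset for transcript length (0.15, adjusted p 0.259). Its values were 0.03 in iFTn-M4 and -0.31 in iFTn-R4 (adjusted p 0.826 and 0.0522). With the length offset they were -0.18 and -0.59, and Hk2 then fell in iFTn-R4 (edgeR adjusted p 0.204 and 0.00691). With that offset Hk2 also fell in iFTn-R4 against iFTn-M4 (-0.40, adjusted p 0.0472), where the main fit gave -0.35 (adjusted p 0.0931). Within the nanocage table Hk2 rose in iFTn-MR4 against iFTn-R4 (0.63, SE 0.11, adjusted p 0.00316).

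At phosphofructokinase, the committed step of glycolysis, the liver and platelet forms fell in each nanocage and the muscle form rose in iFTn-M4 and iFTn-MR4. Pfkm was at 656 and 697 CPM in PBS, 759 and 842 in iFTn-R4, 972 and 1053 in iFTn-M4, and 1248 and 1243 in iFTn-MR4. Each group lay wholly above the one before. The rise against PBS was 0.58 on the log2 scale in iFTn-M4 (SE 0.09, edgeR adjusted p 0.000944) and 0.88 in iFTn-MR4 (SE 0.09, adjusted p 6.13e-05), and the iFTn-R4 value of 0.24 did not pass (adjusted p 0.067). Pfkp, the platelet form, was at 232 and 227 CPM in PBS, 126 and 126 in iFTn-R4, 91.2 and 102 in iFTn-M4, and 94.2 and 88.6 in iFTn-MR4. It fell in each nanocage, by 1.25, 0.86 and 1.33 in iFTn-M4, iFTn-R4 and iFTn-MR4 (edgeR adjusted p 1.26e-05, 0.000358 and 4.62e-06). Pfkl, the liver form, fell by 0.75, 0.71 and 0.65 (edgeR adjusted p 0.000221, 0.000897 and 0.000267), and its nanocage libraries all lay between 140 and 154 CPM. The share of Pfkm in phosphofructokinase TPM went from a mean of 65.2% in PBS to 79% in iFTn-R4, 84.6% in iFTn-M4 and 86.9% in iFTn-MR4.

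The PFKFB enzymes set the level of fructose 2,6-bisphosphate, the strongest activator of phosphofructokinase. The heart form Pfkfb2 had the largest rise of the 35 genes in iFTn-M4 and iFTn-MR4 against PBS. It was at 70.5 and 77.1 CPM in PBS, 171 and 171 in iFTn-R4, 202 and 204 in iFTn-M4, and 212 and 254 in iFTn-MR4. All nanocage libraries lay above both PBS libraries. The log2 rise was 1.46, 1.21 and 1.66 in iFTn-M4, iFTn-R4 and iFTn-MR4 (SE 0.10 each, edgeR adjusted p 1.64e-05, 0.000283 and 4.28e-06). The inducible form Pfkfb3, a HIF-1 target, was at 93.2 and 97.2 CPM in PBS, 69.9 and 66.7 in iFTn-R4, 44.2 and 44.7 in iFTn-M4, and 38.9 and 46 in iFTn-MR4. It fell by 1.10, 0.48 and 1.16 (edgeR adjusted p 3.35e-05, 0.00391 and 1.41e-05). The iFTn-R4 value on log2(TPM + 1) with limma was -0.21 and did not pass (adjusted p 0.112). As a share of PFKFB TPM, Pfkfb2 went from 30.5% and 31.1% in PBS to between 57.3% and 72.6% in the nanocage libraries, and Pfkfb3 from 48.6% and 47.3% to between 15.5% and 29.2%.

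Of the other PFKFB genes, Pfkfb4 was at 13.4 to 19.1 CPM and passed in no comparison. Pfkfb1, the liver and muscle form, was at 2.94 to 6.34 CPM and fell in iFTn-R4 alone (log2 -0.92, edgeR adjusted p 0.0161), which did not pass without PBS library 2 (-0.76, adjusted p 0.103).

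**Figure D3:**
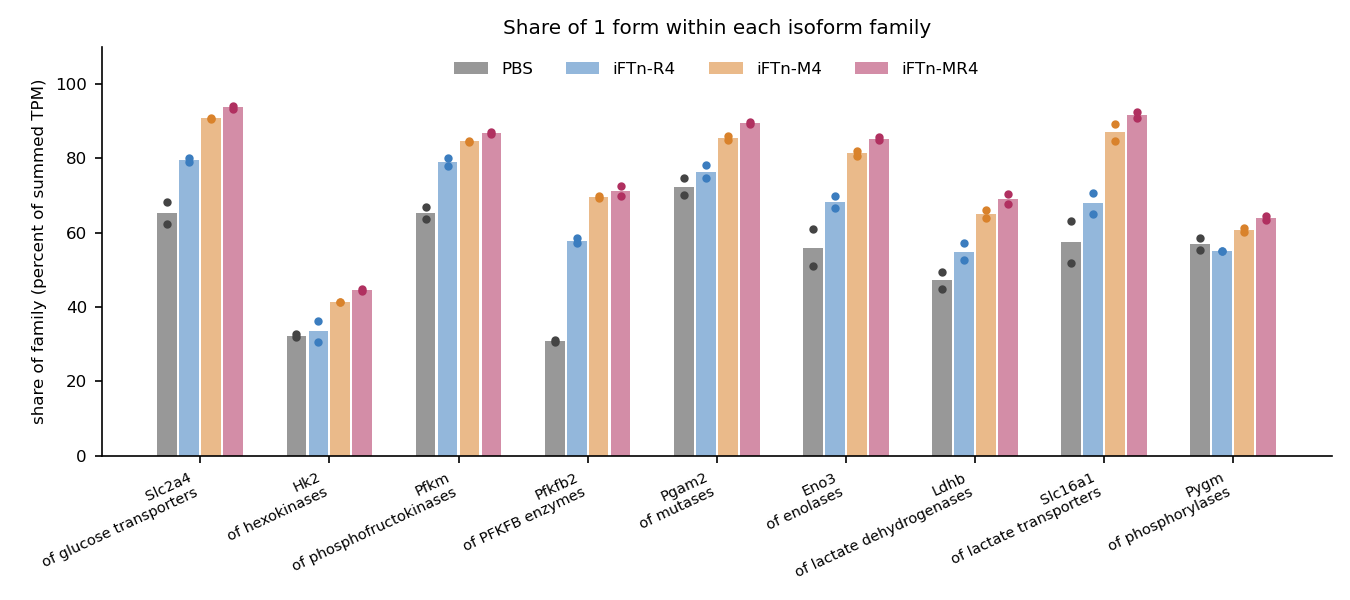
Share of 1 form in the summed TPM of its family, as a percent, in PBS (grey), iFTn-R4 (blue), iFTn-M4 (orange) and iFTn-MR4 (red), with bars at the mean of 2 libraries and a point for each. The mean share of Slc2a4, Pfkm, Pfkfb2, Pgam2, Eno3, Ldhb and Slc16a1 is higher in each nanocage than in PBS and highest in iFTn-MR4, while Pygm is 55.1% in iFTn-R4 beside 57.1% in PBS.

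Of the 6 genes with 1 main form, 5 fell in iFTn-M4, 5 in iFTn-R4 and 4 in iFTn-MR4, and with the length offset 4, 3 and 2 fell. In iFTn-R4 3 fell without PBS library 1, the calls lost being those of Gpi1 and Gapdh. Pgk1, which makes the first ATP of glycolysis and is a HIF-1 target, was at 892 and 788 CPM in PBS, 557 and 578 in iFTn-R4, 475 and 448 in iFTn-M4, and 424 and 412 in iFTn-MR4. The groups did not overlap. It fell by 0.86, 0.57 and 1.01 on the log2 scale in iFTn-M4, iFTn-R4 and iFTn-MR4 (SE 0.09 each, edgeR adjusted p 0.000109, 0.00214 and 2.77e-05). Pkm, the pyruvate kinase gene, fell by 0.78, 0.63 and 0.72 (edgeR adjusted p 0.000143, 0.0012 and 0.000123). Its levels were 2158 and 2047 CPM in PBS and 1217 to 1398 in the nanocage libraries, and the table does not separate its M1 and M2 splice forms.

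Gpi1, the glucose phosphate isomerase, fell by 0.39, 0.38 and 0.32 in iFTn-M4, iFTn-R4 and iFTn-MR4 (edgeR adjusted p 0.00577, 0.0108 and 0.0127). Without PBS library 1 the iFTn-R4 and iFTn-MR4 values were -0.35 and -0.28 (adjusted p 0.0662 and 0.0748), and without iFTn-MR4 library 1 or 2 the latter was -0.31 (adjusted p 0.0773 and 0.0822). Tpi1, the triose phosphate isomerase, fell by 0.55, 0.48 and 0.41 (edgeR adjusted p 0.00107, 0.00421 and 0.00319). Gapdh, often used as a reference gene, was at 5093 and 5262 CPM in PBS, 3662 and 4260 in iFTn-R4, 3995 and 4222 in iFTn-M4, and 4299 and 4368 in iFTn-MR4. Every nanocage library was below both PBS libraries. Gapdh passed in iFTn-M4 and iFTn-R4 (log2 -0.33 and -0.39, edgeR adjusted p 0.0259 and 0.0201) and not in iFTn-MR4 (-0.26, adjusted p 0.0595). Leaving out any 1 library of PBS, iFTn-M4 or iFTn-MR4 ended the iFTn-M4 call (-0.37 to -0.31, adjusted p 0.0596 to 0.127), and leaving out any 1 of PBS or iFTn-MR4 ended the iFTn-R4 call (-0.41 to -0.36, adjusted p 0.0544 to 0.0935). Its counts were split (not whole) in 5 libraries, so part of them may belong to a near-identical copy. How large a part was not measured, so Gapdh stays uncertain.

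Short genes were lower against PBS than long genes. The Spearman correlation of log2 fold change with effective transcript length, across genes, was 0.39, 0.50 and 0.35 in iFTn-M4, iFTn-R4 and iFTn-MR4 against PBS and 0.01 to 0.07 between nanocages, and genes are not independent replicates. Gapdh, Tpi1 and Aldoa lie at percentiles 13.8, 17.9 and 15.5 of length among tested genes. With a length offset Gapdh was -0.09, -0.19 and 0.08 (edgeR adjusted p 0.587, 0.27 and 0.604), and Tpi1 was -0.32, -0.31 and -0.10 (adjusted p 0.0275, 0.0507 and 0.403). Gpi1 in iFTn-MR4 was -0.17 (adjusted p 0.182). On log2(TPM + 1) with limma, Hk1, Gpi1, Aldoa, Tpi1, Gapdh and Ldha in iFTn-R4 were at -0.23 to -0.12 and did not pass (adjusted p 0.0588 to 0.255). On that scale Gapdh and Gpi1 in iFTn-M4 were at -0.17 and -0.21 (limma adjusted p 0.168 and 0.0567), and Gpi1 in iFTn-MR4 was at -0.17 (adjusted p 0.0986). Pgk1 with the length offset still fell in each nanocage, by 0.66, 0.43 and 0.72 (edgeR adjusted p 0.000631, 0.0129 and 0.000208).

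Aldoa, the muscle aldolase, made up at least 99.9% of mean aldolase TPM in each group. It was at 2557 and 2657 CPM in PBS and fell in iFTn-R4 (1890 and 2091 CPM, log2 -0.39, edgeR adjusted p 0.0126), a call lost without PBS library 2 (-0.36, adjusted p 0.0716), with the length offset (-0.21, adjusted p 0.191) and with only the groups compared (-0.37, adjusted p 0.0864). The iFTn-MR4 value against PBS was -0.04 and did not pass, and with the length offset it was 0.28 and passed (edgeR adjusted p 0.0452), so its direction there turns with that choice. Aldoc, the brain form, was at 4.17 and 2.25 CPM in PBS and 0.464 to 0.891 in the nanocage libraries. It fell by 2.18, 2.31 and 2.02 on the log2 scale in iFTn-M4, iFTn-R4 and iFTn-MR4 (edgeR adjusted p 0.00323, 0.00454 and 0.00332), with standard errors of 0.42 to 0.43 at this low level. On log2(TPM + 1) the same differences were -0.94, -0.96 and -0.90, since the added 1 is large beside the level.

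At the next steps the ubiquitous mutase and enolase fell in each nanocage, and the muscle enolase rose in iFTn-M4 and iFTn-MR4. Pgam1, the mutase of brain and most tissues, was at 383 and 327 CPM in PBS, 215 and 191 in iFTn-R4, 153 and 154 in iFTn-M4, and 124 and 118 in iFTn-MR4. It fell by 1.21, 0.81 and 1.55 on the log2 scale in iFTn-M4, iFTn-R4 and iFTn-MR4 (SE 0.10 each, edgeR adjusted p 3.43e-05, 0.000828 and 5.75e-06), and the 4 groups did not overlap. The muscle mutase Pgam2 was at 347 and 368 CPM in PBS, 248 and 270 in iFTn-R4, 375 and 344 in iFTn-M4, and 407 and 408 in iFTn-MR4. It fell in iFTn-R4 (log2 -0.47, edgeR adjusted p 0.00397) and did not pass in iFTn-M4 or iFTn-MR4 (0.01 and 0.19). Pgam2 is among the shortest transcripts, at percentile 4.46, and with the length offset it rose in iFTn-M4 and iFTn-MR4 (0.28 and 0.57, edgeR adjusted p 0.0282 and 0.000542) and did not pass in iFTn-R4 (-0.21, adjusted p 0.124).

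Eno1, the alpha enolase of most tissues, was at 864 and 695 CPM in PBS, 481 and 417 in iFTn-R4, 327 and 315 in iFTn-M4, and 266 and 260 in iFTn-MR4. The groups did not overlap. It fell by 1.28, 0.80 and 1.57 in iFTn-M4, iFTn-R4 and iFTn-MR4 (SE 0.11 each, edgeR adjusted p 5.5e-05, 0.00153 and 1.17e-05). Its counts were split in 4 libraries, so part of them may belong to a near-identical copy. Eno3, the beta enolase of muscle, was at 739 and 891 CPM in PBS, 796 and 797 in iFTn-R4, 1127 and 1181 in iFTn-M4, and 1307 and 1214 in iFTn-MR4. Its iFTn-R4 libraries lay within the PBS range and the others above it. It rose by 0.50 in iFTn-M4 and 0.63 in iFTn-MR4 (SE 0.10 each, edgeR adjusted p 0.0039 and 0.000793), and iFTn-R4 was at -0.03 (adjusted p 0.831). Eno3 made up 51% and 60.9% of enolase TPM in PBS, 66.7% and 69.8% in iFTn-R4, 80.7% and 82% in iFTn-M4, and 85.7% and 85% in iFTn-MR4.

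At the lactate end the heart subunit rose in iFTn-M4 and iFTn-MR4, and the carrier for lactate export fell in each nanocage. Ldhb, which favours the use of lactate, was at 735 and 850 CPM in PBS, 747 and 887 in iFTn-R4, 1104 and 1098 in iFTn-M4, and 1375 and 1201 in iFTn-MR4. PBS and iFTn-R4 overlapped and the other groups lay above both. It rose by 0.48 in iFTn-M4 and 0.70 in iFTn-MR4 (SE 0.12 each, edgeR adjusted p 0.00923 and 0.00086). The former did not pass without PBS library 1 (0.37, adjusted p 0.0764). Ldha, the partner that favours lactate formation, fell by 0.59, 0.41 and 0.62 in iFTn-M4, iFTn-R4 and iFTn-MR4 (edgeR adjusted p 0.000603, 0.00653 and 0.000254). With the length offset the iFTn-R4 value was -0.24 and did not pass (adjusted p 0.0807). Ldhb was 47.2% of lactate dehydrogenase TPM on average in PBS, 54.9% in iFTn-R4, 65% in iFTn-M4 and 69.1% in iFTn-MR4.

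Slc16a3, encoding MCT4, the lactate exporter of glycolytic cells and a HIF-1 target, had the largest fall of the 35 genes in iFTn-M4 and iFTn-MR4. It was at 131 and 90.9 CPM in PBS, 51 and 40.3 in iFTn-R4, 19.7 and 14.6 in iFTn-M4, and 12.9 and 10.7 in iFTn-MR4. The 4 groups did not overlap. It fell by 2.70 in iFTn-M4, fell by 1.28 in iFTn-R4 and fell by 3.23 in iFTn-MR4 on the log2 scale, the last being 9.40-fold lower than PBS (SE 0.20, 0.19 and 0.22, edgeR adjusted p 2.82e-05, 0.00168 and 7.57e-06). Slc16a1, encoding MCT1, the main lactate carrier of heart muscle and of many other cells, was at 271 and 300 CPM in PBS, 181 and 184 in iFTn-R4, 208 and 230 in iFTn-M4, and 248 and 255 in iFTn-MR4. It fell in iFTn-R4 and iFTn-M4 (log2 -0.65 and -0.38, edgeR adjusted p 0.00108 and 0.00542) and did not pass in iFTn-MR4 (-0.18, adjusted p 0.0932). On log2(TPM + 1) with limma the iFTn-M4 value was -0.19 (adjusted p 0.0586). With the length offset Slc16a1 fell in iFTn-M4, iFTn-R4 and iFTn-MR4, at -0.52, -0.85 and -0.26 (edgeR adjusted p 0.00293, 0.00107 and 0.046). MCT4 made up 48.1% and 36.8% of the TPM of this pair in PBS, 34.9% and 29.3% in iFTn-R4, 15.2% and 10.8% in iFTn-M4, and 9.07% and 7.40% in iFTn-MR4.

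The pyruvate dehydrogenase kinases close the way from pyruvate to the mitochondrial fuel acetyl-CoA. Pdk2 was at 237 and 262 CPM in PBS, 262 and 324 in iFTn-R4, 321 and 384 in iFTn-M4, and 474 and 476 in iFTn-MR4. Both iFTn-MR4 libraries were above all others. It rose by 0.93 in iFTn-MR4 (SE 0.12, edgeR adjusted p 0.000222) and by 0.50 in iFTn-M4 (adjusted p 0.0087), the latter not passing without PBS library 1 (0.43, adjusted p 0.0668) or iFTn-M4 library 2 (0.37, adjusted p 0.0816). Pdk1, a HIF-1 target, was at 189 and 171 CPM in PBS and 209 to 277 in the nanocage libraries. It rose in iFTn-MR4 (log2 0.57, edgeR adjusted p 0.00125) and iFTn-R4 (0.34, adjusted p 0.0291), and iFTn-M4 was at 0.28 (adjusted p 0.0502). The iFTn-R4 call was lost without either PBS library, iFTn-M4 library 1 or iFTn-R4 library 2 (0.20 to 0.42, adjusted p 0.0541 to 0.175) and with the length offset (0.08, adjusted p 0.643).

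Pdk4, which fasting, fatty acids and glucocorticoids induce in heart, was at 380 and 1018 CPM in iFTn-R4, 290 and 173 in PBS, 169 and 354 in iFTn-M4, and 269 and 214 in iFTn-MR4. Both iFTn-R4 libraries were above the rest, but they differed from each other more than any other pair. The rise against PBS was 1.59 on the log2 scale (SE 0.46, edgeR adjusted p 0.0273). Without iFTn-R4 library 2 it was 0.70 (adjusted p 0.197), and without PBS library 1 or 2 it was 2.01 and 1.27 (adjusted p 0.0518 and 0.162). In DESeq2 it was 1.59 with an adjusted p of 0.0601. Between iFTn-MR4 and iFTn-R4 Pdk4 fell by 1.53 (edgeR adjusted p 0.0331), and without iFTn-R4 library 2 the difference was -0.65 (adjusted p 0.218). Without iFTn-MR4 library 1 or 2 it was -1.72 and -1.39 (adjusted p 0.118 and 0.181).

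**Figure D4:**
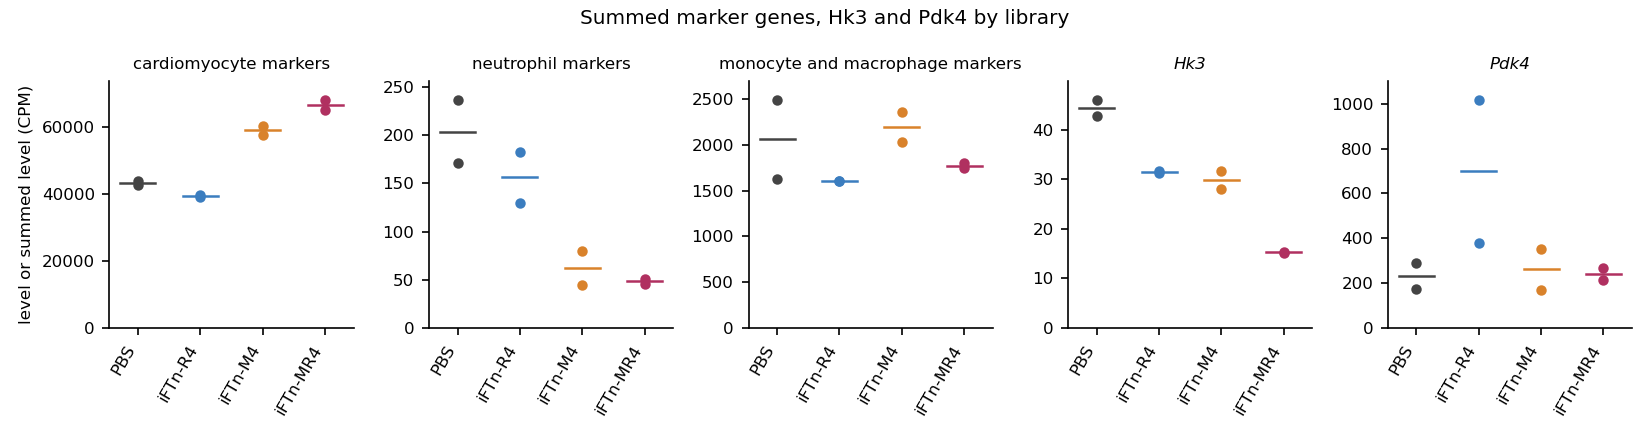
Summed markers of cardiomyocytes, neutrophils, and monocytes and macrophages, beside Hk3 and Pdk4, in CPM, 1 point a library and a line at the group mean. Cardiomyocyte sums are highest in iFTn-MR4, neutrophil sums are lowest in iFTn-M4 and iFTn-MR4, and the Pdk4 points of iFTn-R4 are at 380 and 1018.

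In glycogen breakdown, the muscle and brain phosphorylases rose, the liver phosphorylase did not, and the glycogen synthase did not pass. Pygm, the muscle phosphorylase, was at 689 and 752 CPM in PBS, 835 and 1033 in iFTn-R4, 1094 and 1223 in iFTn-M4, and 1423 and 1410 in iFTn-MR4. Each group lay above the one before. It rose by 0.69 in iFTn-M4 and 0.98 in iFTn-MR4 (SE 0.11 each, edgeR adjusted p 0.0014 and 0.000131) and by 0.37 in iFTn-R4 (adjusted p 0.0342). The iFTn-R4 call was lost when any 1 library was left out except iFTn-M4 library 2 and iFTn-R4 library 1 (0.20 to 0.44, adjusted p 0.0504 to 0.174), and with the length offset (0.36, adjusted p 0.0837). Pygb, the brain form, also abundant in heart, was at 698 and 694 CPM in PBS and 901 to 1121 in the nanocage libraries, and rose by 0.52, 0.54 and 0.62 in iFTn-M4, iFTn-R4 and iFTn-MR4 (edgeR adjusted p 0.00477, 0.00673 and 0.00129). With the length offset the iFTn-R4 value was 0.40 (adjusted p 0.0521).

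Pygl, the liver phosphorylase that neutrophils also use, was at 48.5 and 25.7 CPM in PBS and 18.9 to 27.9 in the nanocage libraries. It passed in iFTn-MR4 against PBS alone (log2 -0.71, edgeR adjusted p 0.049), with overlapping libraries. Without PBS library 1 its value was -0.17 (adjusted p 0.532), and without iFTn-MR4 library 2 it was -0.47 (adjusted p 0.29). Leaving out iFTn-MR4 library 1 or either iFTn-M4 library also ended the call (adjusted p 0.0592 to 0.0624), and in DESeq2 the value was -0.70 (adjusted p 0.132). Gys1, the muscle glycogen synthase, was at 108 to 142 CPM in the 8 libraries and passed in no comparison, with 95% intervals against PBS of -0.53 to -0.01 in iFTn-M4, -0.44 to 0.07 in iFTn-R4 and -0.35 to 0.16 in iFTn-MR4.

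The nanocages differed from each other mainly between iFTn-MR4 and iFTn-R4. There 11 of the 35 genes rose and 9 fell in iFTn-MR4, beside 27.2% of all tested genes (12.6% up, 14.6% down). Libraries did not overlap for 26 of 35, beside 64.1% of all tested genes. Of the 12 muscle forms 10 rose and 1 fell, with a median of 0.65 on the log2 scale where the median of all tested genes was -0.01. The rises included Slc2a4 (0.99, SE 0.07, edgeR adjusted p 0.000111), Pgam2 (0.66, adjusted p 0.000864), Eno3 (0.66, adjusted p 0.00197) and Pfkm (0.64, adjusted p 0.00129). The falls included Slc16a3 (-1.95, SE 0.22, adjusted p 0.000481), Hk3 (-1.04, adjusted p 0.000278), Slc2a1 (-1.02, adjusted p 0.000537) and Eno1 (-0.77, adjusted p 0.00158). Pfkfb2 rose by 0.45 and Aldoa by 0.35 (edgeR adjusted p 0.00756 and 0.0212), and Pgk1 fell by 0.44 (adjusted p 0.00599). Without iFTn-MR4 library 2 these were 0.30, 0.32 and -0.43 (adjusted p 0.0684, 0.134 and 0.0594), and without library 1 Aldoa was at 0.35 (adjusted p 0.104). Cardiomyocyte marker sums were 65080 and 68064 CPM in iFTn-MR4 and 38981 and 39753 in iFTn-R4, and 7 of 10 of these markers rose. Neutrophil sums were 45.8 and 51.2 CPM in iFTn-MR4 and 183 and 130 in iFTn-R4, and 7 of 8 of these markers fell, as did 5 of 10 monocyte and macrophage markers. The part of these cells was not tested.

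Between iFTn-R4 and iFTn-M4 6 genes rose and 3 fell in iFTn-R4, beside 5.93% of all tested genes (3.43% up, 2.5% down). Libraries did not overlap for 22 of 35, beside 50.4% of all tested genes. Slc16a3 (1.42), Slc2a1 (0.83), Pfkfb3 (0.62), Eno1 (0.49), Pgam1 (0.40) and Pfkp (0.38) rose, with edgeR adjusted p from 0.00578 to 0.0409. Slc2a4 (-0.55), Eno3 (-0.53) and Pgam2 (-0.48) fell, with edgeR adjusted p from 0.00515 to 0.0176. Neutrophil marker sums were also higher in iFTn-R4 (130 and 183 CPM, against 45 and 79.8 in iFTn-M4), with 3 of 8 markers up. Cardiomyocyte sums were lower (38981 and 39753 CPM, against 57596 and 60288), with 4 of 10 markers down. The part of these cells was not tested. All 9 calls were lost without iFTn-M4 library 2, when 60 genes of all tested passed, and the 9 values were then 1.21, 0.84, 0.63, 0.46, 0.41, 0.47, -0.55, -0.50 and -0.54 in the same order (adjusted p 0.0612 to 0.227). Without iFTn-M4 library 1 Pfkp, Pgam1, Eno1, Eno3 and Pgam2 were lost (0.31, 0.41, 0.52, -0.56 and -0.41, adjusted p 0.0669 to 0.16). Without iFTn-R4 library 1 Pgam1 and Eno1 were at 0.31 and 0.38 (adjusted p 0.116 and 0.0996), and without either iFTn-MR4 library they also missed the threshold (0.42 and 0.50, adjusted p 0.0732 to 0.0753). With the length offset Pfkp and Pgam1 were at 0.29 and 0.33 (edgeR adjusted p 0.0664 and 0.063).

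Between iFTn-MR4 and iFTn-M4 2 genes passed, beside 0.366% of all tested genes (0.0215% up, 0.344% down). Slc2a4 rose by 0.44 (SE 0.07, edgeR adjusted p 0.0468) and Hk3 fell by 0.96 (SE 0.10, adjusted p 0.00806). The Slc2a4 call was lost without any 1 library of PBS, iFTn-M4 or iFTn-MR4 (0.41 to 0.47, adjusted p 0.0821 to 0.398). The Hk3 call was lost without iFTn-M4 library 1 (-0.88, adjusted p 0.0917), iFTn-MR4 library 1 (-0.97, adjusted p 0.165) or iFTn-MR4 library 2 (-0.96, adjusted p 0.149). Both iFTn-MR4 libraries were above both iFTn-M4 libraries for 10 of the 12 muscle forms. Libraries did not overlap in either direction for 27 of 35 genes, beside 54.3% of all tested genes. For 8 of 10 cardiomyocyte markers both iFTn-MR4 libraries were also above, for 0 below, and 0 passed. Their sums were 68064 and 65080 CPM in iFTn-MR4 and 57596 and 60288 in iFTn-M4. For 8 of 10 monocyte and macrophage markers both iFTn-MR4 libraries were below, for 0 above, and 2 fell. Of 8 neutrophil markers 3 were below and 1 above, and 0 passed. The part of these cells was not tested. Of the genes that did not pass, Hk2, Pfkm, Slc16a1, Pdk1, Pdk2 and Pygm had unadjusted 95% intervals above 0, and Pgam1, Eno1 and Slc16a3 below 0 (edgeR adjusted p 0.13 to 0.273). The intervals were 0.10 to 0.50 for Pfkm, 0.16 to 0.70 for Pdk2, -0.56 to -0.12 for Pgam1 and -1.07 to -0.01 for Slc16a3.

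**Figure D5:**
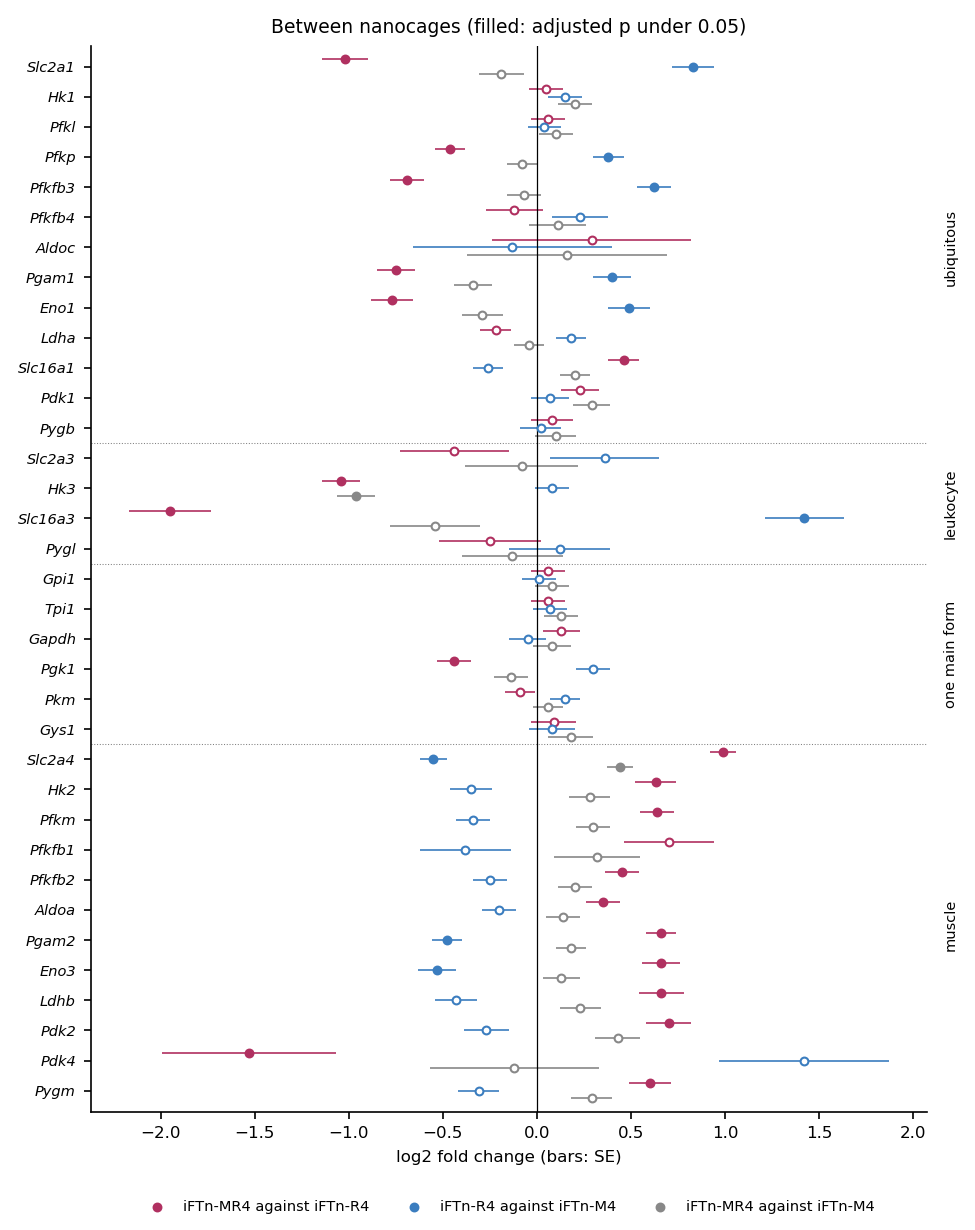
Log2 fold change of each member in iFTn-MR4 against iFTn-R4 (red), iFTn-R4 against iFTn-M4 (blue) and iFTn-MR4 against iFTn-M4 (grey), grouped by class, with bars of 1 standard error and filled points for an adjusted p under 0.05. Filled red points of the muscle class lie right of 0 except Pdk4, at -1.53.

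Ordered by group mean, 11 of the 35 genes ran from PBS through iFTn-R4 and iFTn-M4 down to iFTn-MR4, as did 17.3% of all tested genes. They were 6 ubiquitous and 4 leukocyte forms and Pgk1. The reverse order was seen in 5 of the 35 genes, all muscle forms (Pfkm, Pfkfb2, Ldhb, Pdk2 and Pygm). That share is near the 14.7% of all tested genes. Another 4 muscle forms (Slc2a4, Hk2, Pgam2 and Eno3) had iFTn-R4 lowest, then PBS, iFTn-M4 and iFTn-MR4, an order held by 5.19% of all tested genes. Neighbours in these orders often lay within each other's spread, as for Pfkfb3 in iFTn-M4 and iFTn-MR4 and Ldhb in PBS and iFTn-R4. The 35 genes together took 2.19% of CPM in both PBS libraries and 1.73% to 2.09% in the nanocage libraries.

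Genes of the neighbouring pathways were given by list, with up to 3 named for each by the lowest p of the test among the 4 groups. Their calls, like those of the cell markers, are given from the main fit alone, without the length offset or a library left out. Over all tested genes 41.2%, 29.4% and 50.9% passed in iFTn-M4, iFTn-R4 and iFTn-MR4 against PBS. All 8 genes of the pentose phosphate pathway, which makes NADPH and ribose, fell in iFTn-M4 and in iFTn-MR4 against PBS, and 4 fell in iFTn-R4. Pgd, which makes NADPH, was at 174 and 143 CPM in PBS, 124 and 103 in iFTn-R4, 95 and 86.4 in iFTn-M4, and 72.5 and 70.8 in iFTn-MR4, with no overlap between groups. Its log2 values were -0.80, -0.48 and -1.15 in iFTn-M4, iFTn-R4 and iFTn-MR4 (edgeR adjusted p 0.000676, 0.013 and 6.38e-05). Taldo1 and Pgls, of the same pathway, also fell in each nanocage, by 0.76, 0.51 and 0.92 and by 0.67, 0.84 and 0.67 (edgeR adjusted p 2.56e-05 to 0.00216).

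Of 15 genes of pyruvate entry and its control, 5 rose and 1 fell in iFTn-M4, 2 rose and 5 fell in iFTn-R4, and 9 rose and 1 fell in iFTn-MR4 against PBS, or 40.0%, 46.7% and 66.7% called. The first is near the share of all tested genes. In iFTn-MR4 against iFTn-R4 12 rose and 1 fell, beside 27.2% of all tested genes. Pdp2, a phosphatase that switches pyruvate dehydrogenase on, was at 16.1 and 16.3 CPM in PBS, 19.6 and 15.5 in iFTn-R4, 23 and 25.4 in iFTn-M4, and 35.2 and 35.8 in iFTn-MR4. PBS and iFTn-R4 overlapped and both iFTn-MR4 libraries were highest. It rose by 0.58 in iFTn-M4 and 1.13 in iFTn-MR4 (edgeR adjusted p 0.00441 and 7.13e-05). Pdpr, a regulatory subunit of pyruvate dehydrogenase phosphatase, rose in each nanocage (0.65, 0.35 and 0.83 in iFTn-M4, iFTn-R4 and iFTn-MR4, edgeR adjusted p 0.000315, 0.0117 and 4.79e-05). Ldhd, the mitochondrial D-lactate dehydrogenase, rose in iFTn-M4 and iFTn-MR4 (0.49 and 0.87, edgeR adjusted p 0.0048 and 0.000131).

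Of 24 tested genes of glycogen handling, 6 rose and 5 fell in iFTn-M4, 2 rose and 3 fell in iFTn-R4, and 8 rose and 4 fell in iFTn-MR4. The shares called, 45.8%, 20.8% and 50%, are near or below those of all tested genes (41.2%, 29.4% and 50.9%). Ppp1r3c, a subunit that brings protein phosphatase 1 to glycogen, rose by 0.66 in iFTn-M4 and 0.96 in iFTn-MR4 (edgeR adjusted p 0.00168 and 0.000132). Gbe1, the branching enzyme, fell in each nanocage, by 0.58, 0.83 and 0.33 in iFTn-M4, iFTn-R4 and iFTn-MR4 (edgeR adjusted p 0.000611, 0.000482 and 0.007). Stbd1, which binds glycogen, fell in iFTn-M4 and iFTn-MR4, by 0.90 and 1.60 (edgeR adjusted p 0.00106 and 4.16e-05).

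Of 7 hexosamine pathway genes, 2 rose and 1 fell in iFTn-M4, 2 rose and 1 fell in iFTn-R4, and 2 rose and 2 fell in iFTn-MR4, or 42.9%, 42.9% and 57.1% called, beside 41.2%, 29.4% and 50.9% of all tested genes. Ogt and Oga, which add and remove O-linked N-acetylglucosamine on proteins, both rose in each nanocage (0.33 to 0.57 on the log2 scale, edgeR adjusted p 0.00163 to 0.0309). Gnpnat1, which makes their sugar precursor, fell in iFTn-M4 and iFTn-MR4, by 0.49 and 0.74 (edgeR adjusted p 0.0198 and 0.0024).

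Of 17 tested genes of further transport and glycolysis isoforms, 2 rose and 4 fell in iFTn-M4, 0 rose and 2 fell in iFTn-R4, and 4 rose and 5 fell in iFTn-MR4. The shares called, 35.3%, 11.8% and 52.9%, are near or below the 41.2%, 29.4% and 50.9% of all tested genes. Gpd1l, akin to glycerol phosphate dehydrogenase, rose by 0.34 in iFTn-M4 and 0.62 in iFTn-MR4 (edgeR adjusted p 0.0122 and 0.000352). Adpgk, an ADP-dependent glucokinase, and Minpp1, an inositol polyphosphate phosphatase, fell in those groups, by 0.77 and 0.68 and by 0.54 and 0.62 (edgeR adjusted p 0.000383 to 0.00125).

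Of 29 regulators of glucose use, 13 rose and 6 fell in iFTn-M4, 13 rose and 4 fell in iFTn-R4, and 16 rose and 5 fell in iFTn-MR4 against PBS. The shares called were 65.5%, 58.6% and 72.4%, beside 41.2%, 29.4% and 50.9% of all tested genes. Egln3, an oxygen sensor that is itself induced by HIF-1, was at 215 and 168 CPM in PBS, 62.4 and 56.1 in iFTn-R4, 42.4 and 47.6 in iFTn-M4, and 41.3 and 56.3 in iFTn-MR4. All nanocage libraries lay far below PBS. It fell by 2.09, 1.69 and 1.97 on the log2 scale in iFTn-M4, iFTn-R4 and iFTn-MR4 (edgeR adjusted p 2.64e-05, 0.000358 and 1.74e-05). Myc, a transcription factor that raises glycolytic genes, was at 36.9 and 40.1 CPM in PBS, 23.9 and 23.7 in iFTn-R4, 11.3 and 13.5 in iFTn-M4, and 7.41 and 8.46 in iFTn-MR4, with no overlap between groups. It fell by 1.63, 0.69 and 2.28 (edgeR adjusted p 1.95e-05, 0.00215 and 3.42e-06). Epas1, encoding HIF-2 alpha, rose by 0.73, 0.53 and 1.05 (edgeR adjusted p 0.000258, 0.00292 and 2.19e-05).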

How the data were processed

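Poly(A) RNA from 8 mouse heart samples in 4 groups was sequenced as DNA nanoballs, as the labels' protocols state. HISAT2 2.1.0, Bowtie2 2.2.5 and RSEM 1.2.8 were used with the build GRCm38.p6, per the submitters' processing notes. The authors deposited expected counts, of which 5.09% were not whole (tolerance 1e-09). The authors deposited FPKM values, used here with the counts only to derive effective lengths. The authors also deposited TPM values, used for isoform shares. PBS values stand in a table of 17051 genes and nanocage values in another of 17788, and 16547 genes had values in all 8 libraries. Whether counting used strand is not stated in the sources used here.

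Expected counts were rounded to whole numbers and tested with edgeR 4.0.16 in R 4.3.3 (filterByExpr, 13953 genes; TMM; quasi-likelihood test of all 8 libraries in 1 fit). Tests were 2-sided, with Benjamini-Hochberg adjustment across the 13953 genes and a threshold of 0.05. The biological coefficient of variation was 8.47%. On simulated counts for iFTn-M4 against PBS, 173 of 200 changed genes and 5 others among the 13953 genes were called. The changes put in were of log2 1 up or down, larger than most changes of the 35 genes. The simulation held no length trend and no difference between tables, so it does not give the rate of false calls against PBS. Alternatives used DESeq2 1.42.0, limma 3.58.1, other scalings, no filter on low counts, only the groups compared, a length offset (a spline with 4 degrees of freedom), a replicate block, and each library left out. Python 3.11.15 made the shares and figures.

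Named were all 35 genes, and of each neighbouring list up to 3 genes with the lowest p among the 4 groups, an adjusted p under 0.05 and a mean of at least 5 CPM in the highest group. The members, classes and lists were chosen with earlier results of these data known, and counts over them are descriptions without a test. Identifiers of all 35 genes matched RefSeq, the source of promoter windows. Slc2a3 and Slc2a4 have no window there.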

Additional observations from a re-analysis of the deposited data

How the results depend on the processing

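Of 107 calls of the 35 genes over the 6 pairwise comparisons, 68 passed under each of the 18 alternatives, 77 without each library in turn, and 92 with the length offset. The 68 include Aldoc in iFTn-R4 against PBS, which had a value in only 17 of the 18 alternatives and none in DESeq2. The total counts of genes called against PBS and between iFTn-MR4 and iFTn-R4 stayed within 1.5 times their value. In iFTn-R4 against PBS the directions moved further: the 5 rises were 2 to 7 with 1 library left out, 2 with the length offset or only the groups compared, and 8 on log2 of TPM, where the 20 falls were 12. Between iFTn-MR4 and iFTn-M4 the count of 2 was 1 with library size alone, 1 on log2(TPM + 1), 1 on log2(TPM + 0.1), 4 in DESeq2, 6 with only the groups compared, 4 with the replicate block and 4 with the length offset and replicate block together, and 0 to 4 with 1 library left out. Between iFTn-R4 and iFTn-M4 the count of 9 was 4 with only the groups compared, 16 with the length offset and replicate block, and 0 to 13 with 1 library left out. Aldoa in iFTn-MR4 against PBS turned from -0.04 to 0.28 with the length offset, and to 0.28 with the replicate block added. The causes were not tested.

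Replicate numbers do not pair the samples by any label, and the correlation of same-numbered deviations was -0.01 to 0.15. The replicate block gave 29, 26 and 27 genes called in iFTn-M4, iFTn-R4 and iFTn-MR4 against PBS, where the main counts were 25, 25 and 26. Its combination with the length offset was chosen after seeing the data. On log2(TPM + 1) the median of all genes against PBS was 0.14, 0.20 and 0.11 in iFTn-M4, iFTn-R4 and iFTn-MR4, and on log2(TPM + 0.1) 0.17, 0.24 and 0.13, with -0.12 in iFTn-MR4 against iFTn-R4. The length offset put the last at 0.13. With 2 libraries a group, 1 library decides many calls. A gene with no count lies below 0.191 to 0.220 CPM (3 counts), which covers counting error only.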
